A study of Mus musculus with 32 samples.

Results

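The genes described here encode the mitochondrial ribosomal proteins, and were taken as every gene whose symbol is Mrpl or Mrps followed by a number and at most 1 letter. The rule found 77 genes among the 54087 in each table, 48 with Mrpl and 29 with Mrps symbols, and left out 5 pseudogene symbols with the same stem. By the structures of the mammalian mitoribosome, 50 of the 77 encode large subunit proteins, because Mrps30 and Mrps18a, despite their names, sit in the large subunit. A further 26 encode small subunit proteins. The remaining gene, Mrps36, encodes a component of the 2-oxoglutarate dehydrogenase complex and not a ribosomal subunit.

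As background, the mitoribosome translates the messenger RNAs of the mitochondrial genome, all of which encode inner membrane subunits of the respiratory chain and ATP synthase. Its RNAs come from mitochondrial DNA, whereas every one of its proteins is encoded in the nucleus, made in the cytosol and imported. Activated T cells enlarge their mitochondria and respiratory capacity, and regulatory T cells (Tregs), the Foxp3-expressing T cells that restrain immune responses, are known to depend on respiration.

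Tregs came from C57BL/6 mice, 2.5 months old, that carry the Foxp3-IRES-GFP knock-in, and were sorted by GFP, which marks cells that transcribe Foxp3; all groups share this genotype. For culture, plates coated with anti-CD3 and anti-CD28 were used, the medium held 10 ng/ml IL-2, and cells were taken after 18 h or 36 h with 1 of 4 agonists or none (control). The agonists were STAR2 (TNC-sc(mu)TNF80), at 12 ng/ml, for TNFR2; antibody 3H3, at 10 µg/ml, for 4-1BB; TL1A, at 12 ng/ml, for DR3; and OX40L, at 100 ng/ml, for OX40, so doses were not matched. Resting Tregs were the baseline, and with no culture lacking anti-CD3 and anti-CD28 the effects of stimulation, IL-2, culture and time cannot be told apart. Each of the 11 groups had 3 libraries except OX40 at 18 h, which had 2. The labels do not say that replicates came from separate animals or cultures, so p-values measure the spread between these libraries, which may be technical.

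The 32 libraries held 11880270 to 38083925 expected counts each, the estimated reads per gene. All 77 genes passed the filter on low counts. On the CPM scale, counts divided by the library total after TMM adjustment, the lowest group mean was 4.47 CPM, for Mrps36 in resting cells. The 8 Treg and T cell markers, Foxp3 among them, were detected in every group and summed to 6568 to 6602 CPM in control cells at 18 h, against 4094 to 4307 CPM in resting cells. Il2ra, the IL-2 receptor chain that activation induces, carried this rise, at 3239 to 3261 CPM against 584 to 614 CPM, while Cd4, Cd3e and Trac had log2 fold changes of −0.91, −1.18 and −0.52. Markers of other cells were lower in control cells: the 6 B cell markers, none at 0, summed to 293 to 316 CPM at 18 h against 712 to 754 CPM in resting cells; Ighm alone made up 288 to 310.5 and 696.5 to 738 CPM of these sums. The 7 myeloid and dendritic markers summed to 1.19 to 1.96 CPM at 18 h, with Itgam and Cd14 at 0, against 8.76 to 9.68 CPM in resting cells, with none at 0. The 5 CD8 T and NK markers summed to 6.78 to 6.995 CPM at 18 h, with Klrb1c, Ncr1 and Klrd1 at 0, against 14.1 to 16.3 CPM in resting cells, with Ncr1 at 0. The 5 erythroid and platelet markers summed to at most 0.814 CPM at 18 h, with Pf4 and Ppbp at 0, and to at most 3.86 CPM in resting cells, with Pf4 at 0. A transcript from the ribosomal RNA locus on chromosome 17 also varied, at 8114 to 26030 CPM in control cells at 18 h and 1329 to 3370 CPM in resting cells. The part of these marker shifts in the results below was not tested.

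Promoters are shown for 6 genes at the extremes of the results that follow: Mrps22, Mrpl12 and Mrpl20 among the largest rises with stimulation, Mrpl24, the gene that fell, and Mrpl18 and Mrpl23, the largest rise and fall between 18 h and 36 h. Each line gives the 250 bases before the annotated start, 5′ to 3′ on the gene's own strand, from RefSeq on GRCm38.p6, and capitals mark a match to 1 of 4 motifs on either strand.
Mrps22, chr9:98601680-98601929, minus strand: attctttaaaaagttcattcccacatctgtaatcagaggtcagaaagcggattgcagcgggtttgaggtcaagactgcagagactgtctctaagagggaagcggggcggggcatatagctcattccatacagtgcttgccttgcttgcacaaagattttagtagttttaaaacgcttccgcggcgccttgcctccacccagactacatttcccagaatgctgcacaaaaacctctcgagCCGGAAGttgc
Mrpl12, chr11:120484387-120484636, plus strand: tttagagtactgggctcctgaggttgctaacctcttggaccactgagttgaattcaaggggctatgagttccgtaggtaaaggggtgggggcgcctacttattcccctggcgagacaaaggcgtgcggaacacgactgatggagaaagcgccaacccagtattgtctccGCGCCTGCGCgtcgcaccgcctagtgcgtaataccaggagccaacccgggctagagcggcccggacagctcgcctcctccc
Mrpl20, chr4:155802628-155802877, plus strand: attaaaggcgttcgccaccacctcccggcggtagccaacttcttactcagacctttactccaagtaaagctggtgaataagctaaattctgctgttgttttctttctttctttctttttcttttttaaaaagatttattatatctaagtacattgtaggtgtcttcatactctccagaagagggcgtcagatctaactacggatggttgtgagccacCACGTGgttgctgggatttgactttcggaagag
Mrpl24, chr3:87919294-87919543, plus strand: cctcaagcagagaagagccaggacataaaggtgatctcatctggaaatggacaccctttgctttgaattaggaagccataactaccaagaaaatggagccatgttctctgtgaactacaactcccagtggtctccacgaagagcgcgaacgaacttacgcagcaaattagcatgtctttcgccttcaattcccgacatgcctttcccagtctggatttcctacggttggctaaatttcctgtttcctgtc
Mrpl18, chr17:12916092-12916341, minus strand: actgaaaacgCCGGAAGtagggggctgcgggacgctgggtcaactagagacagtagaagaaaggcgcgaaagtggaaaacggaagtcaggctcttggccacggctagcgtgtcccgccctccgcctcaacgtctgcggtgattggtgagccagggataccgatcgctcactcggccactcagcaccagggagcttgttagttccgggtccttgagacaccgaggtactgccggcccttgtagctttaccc
Mrpl23, chr7:142532782-142533031, plus strand: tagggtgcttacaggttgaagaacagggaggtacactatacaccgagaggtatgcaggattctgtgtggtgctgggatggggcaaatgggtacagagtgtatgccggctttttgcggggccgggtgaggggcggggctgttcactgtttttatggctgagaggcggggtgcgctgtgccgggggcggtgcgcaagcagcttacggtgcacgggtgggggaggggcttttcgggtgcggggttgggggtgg

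The 4 motifs searched were CCGGAAG, a site of ETS factors such as GABP; GCGCA, any base and GCGC, of NRF-1; AAGATGGC, of YY1; and CACGTG, the E-box that MYC and MAX bind. Matches were counted per motif on either strand, whether or not they overlapped another motif, in 300-base windows that reach 50 bases past the start, and 68 of the 77 genes had a window. CCGGAAG occurred in 25 of the 68 genes (36.8%), against 12.9% of 17492 protein-coding genes and 9.93% of all 27025 genes with a window. The NRF-1 motif occurred in 13 (19.1%), against 7.17% of protein-coding genes and 5.19% of all genes. For AAGATGGC the count was 12 (17.6%), against 3.57% and 3.19%. The E-box, by contrast, was in 5 (7.35%), against 8.91% and 8.09%. In all, 44 of the 68 genes held at least 1 of these motifs. These are matches of letters, with no test and no binding measured, and the windows of Mrpl24 and Mrpl23 held none of the 4. No window was listed for Mrpl13, Mrpl15, Mrpl19, Mrpl38, Mrpl4, Mrpl54, Mrps28, Mrps34 and Mrps35.

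In units of TPM, transcript abundances that allow genes of different length to be compared, the 77 genes together amounted to 3892 ± 49.9 TPM in resting Tregs, 7458 ± 63.5 TPM in control cells at 18 h and 7666 ± 181 TPM at 36 h (SD, n = 3 each). The sum at 18 h was 1.92 times that in resting cells, and the sums of the control and resting libraries did not overlap. Groups with an agonist had mean sums of 7428 to 7698 TPM. At 18 h the TNFR2 libraries (7558 to 7803 TPM) and the DR3 libraries (7586 to 7745 TPM) lay above the control libraries (7385 to 7501 TPM), whereas sums with the 4-1BB and OX40 agonists at 18 h, and with all 4 agonists at 36 h, overlapped those of control cells. The ribosomal locus transcript was at 8114 to 26030 CPM in these control libraries at 18 h, 1407 to 11860 CPM with TNFR2 and 3928 to 6853 CPM with DR3. Its part in the sums was not tested. TPM and CPM are shares of a library, so RNA per cell was not measured, and in bulk RNA a change in the share of cells of a type cannot be told apart from a change of RNA per cell. Set against the summed cytosolic ribosomal proteins, the sum was 1.74% ± 0.0139 in resting cells, 3.63% ± 0.0510 at 18 h and 3.97% ± 0.0530 at 36 h. Per gene, the mean large subunit level was 1.03 times the mean small subunit level in resting cells, 1.06 times at 18 h and 1.09 times at 36 h, so the summed level roughly doubled in both subunits.

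**Figure D1:**
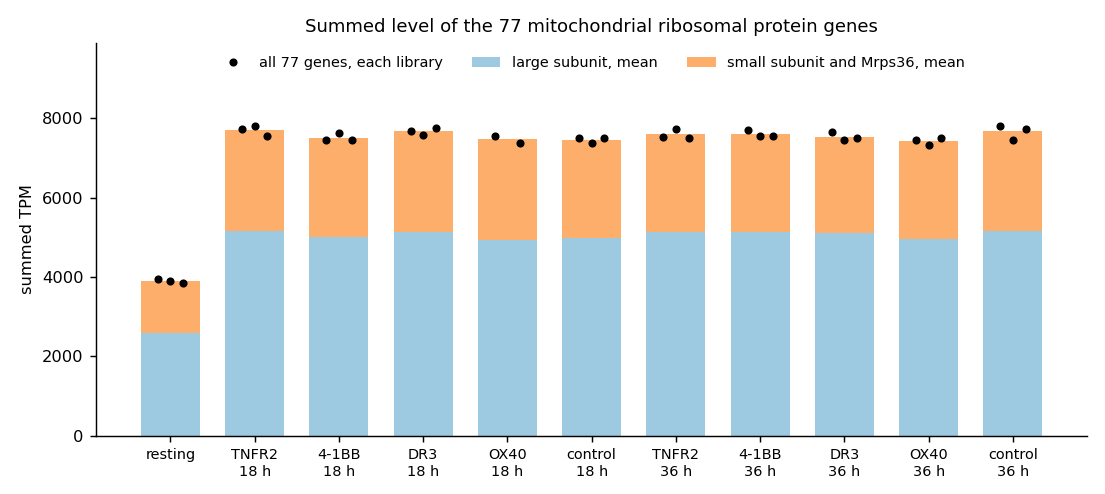
Summed TPM of the 77 genes (vertical axis, from 0) in each of the 11 groups, with bars for group means split into large subunit genes and the rest, and a point for each library. Resting libraries lie between 3839 and 3938 TPM, and the means of the 10 cultured groups between 7428 and 7698 TPM.

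Levels of single genes were more alike after stimulation. Over the 77 genes the coefficient of variation of the TPM was 76.9% ± 0.636 in resting cells, 58.8% ± 1.03 at 18 h and 56.5% ± 0.952 at 36 h, and the highest gene was 28.1, 12.98 and 11.2 times the lowest at these stages. Mrpl52, a large subunit protein without a bacterial homologue, had the highest TPM both at 18 h (302) and in resting cells (241). Mrpl42, Mrpl33, Mrpl12 and Mrpl20 followed it in the mean over the 11 groups. Mrpl12, the stalk protein that recruits translation factors to the ribosome, ranked 4 at 18 h (204 TPM) and 32 in resting cells (49.6 TPM). Mrpl11 and Mrpl1, which in bacteria form the stalk base and the L1 stalk, were the lowest in resting cells, at 8.92 and 10.4 TPM, and the other genes with the lowest mean over the groups were Mrps33, Mrps30 and Mrpl39.

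Stimulation for 18 h raised 76 of the 77 genes and lowered 1, Mrpl24, in control over resting Tregs (edgeR quasi-likelihood test, adjusted p below 0.05). Of all 14313 genes tested, 80.9% were called in this comparison 40.9% higher and 40.1% lower, so the share called was near the background, and the members differed from the whole table in their common direction. At 36 h the counts were again 76 higher and 1 lower, where 84.5% of all genes were called, 42.4% higher and 42.1% lower. The median log2 fold change of the 77 was 1.11 at 18 h and 1.198 at 36 h, beside medians of −0.01 over all genes at both times. In all 77 genes the control and resting libraries did not overlap, at 18 h or at 36 h, where the same held for 81.8% and 84.5% of all genes. A rise of at least 1.5-fold was seen in 65 genes at 18 h and in 67 at 36 h. Of all genes, 58.9% and 64.2% were called with a change of this size in either direction. The share of all genes that rose by as much was not taken. At 18 h and 36 h, 46 and 48 of the 77 rose at least 2-fold, and 4 at least 4-fold at each time. For 2-fold and 4-fold rises no share over all genes was taken, here or for the subunits below. Upper-quartile scaling moved the median of all genes to −0.16 and that of the 77 to 0.96 at 18 h, and to −0.21 and 1.00 at 36 h.

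Among the 30 large subunit genes with a bacterial homologue, 29 rose at 18 h, with a median of 1.26, and 19 at least doubled. Mrpl12 had 28.3, 28.5 and 29.9 CPM in the 3 resting libraries, 132, 140 and 134 CPM at 18 h, and 144, 128 and 140.5 CPM at 36 h, which is 2.23 ± 0.08 (SE) on the log2 scale at 18 h by edgeR (adjusted p = 1.45e-19). Mrpl20, a protein that binds ribosomal RNA early in assembly in bacteria, had 16.4, 16.8 and 16.7 CPM in resting cells, 62.7, 68.3 and 65.1 CPM at 18 h and 73.8, 69.0 and 72.1 CPM at 36 h (log2 fold change 1.97 ± 0.06 at 18 h, adjusted p = 7.06e-33). In both genes every stimulated library was over 3 times above every resting one. All 20 large subunit genes without a bacterial homologue rose, with a median of 1.09 and 13 of them at least 2-fold higher. Mrps18a and Mrps30 were counted here, with log2 fold changes of 1.13 and 0.95 at 18 h, although Mrps18a is related to bacterial S18.

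In the small subunit, all 16 genes with a bacterial homologue rose at 18 h (median 1.01) and all 10 without one (median 1.09). The highest rise of the whole list was that of Mrps22, a small subunit protein without a bacterial homologue: it had 7.45, 7.97 and 8.52 CPM in resting cells, 45.1, 48.7 and 46.6 CPM at 18 h and 47.1, 47.1 and 44.0 CPM at 36 h. Its log2 fold change was 2.56 ± 0.07 at 18 h (adjusted p = 9.51e-34) and 2.53 ± 0.07 at 36 h (adjusted p = 6.05e-34), a fold of 5.88 and 5.78. Mrps28, the homologue of bacterial S1, had 5.24, 4.35 and 4.61 CPM in resting cells, 22.9, 22.7 and 24.98 CPM at 18 h and 19.15, 17.6 and 19.55 CPM at 36 h (log2 fold change 2.32 ± 0.10 at 18 h). These stimulated and resting libraries lay far apart, while Mrps28 was lower at 36 h than at 18 h. The paralogs of bacterial S18 differed in size: Mrps18b rose by 2.16 ± 0.08 and Mrps18c by 0.99 ± 0.08 at 18 h, beside 1.13 ± 0.07 for Mrps18a of the large subunit. Of these, Mrps18a and Mrps18b were counted with the genes without a bacterial homologue. Reads of paralogs can be shared out imperfectly by the counting. Counts of Mrps18c were not whole numbers in 21 libraries, while those of Mrps18a and Mrps18b were whole throughout. Exons of Gm43511 on the same strand cover 23.2% of the exon bases of Mrps18c. Mrps36, the gene that is not a ribosomal subunit, rose by 1.46 ± 0.11.

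**Figure D2:**
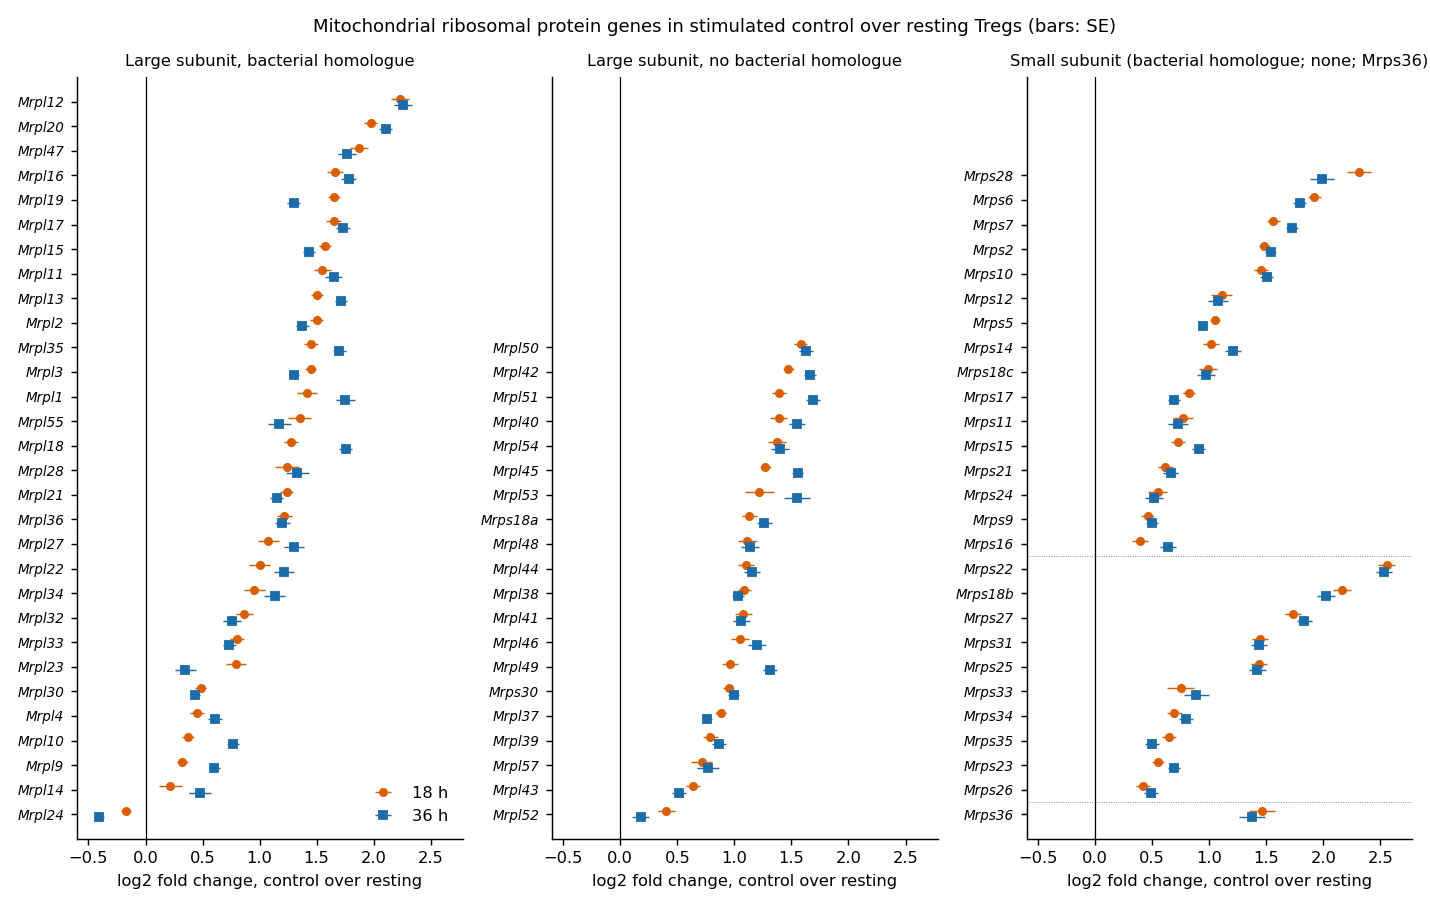
Log2 fold change of each of the 77 genes in control over resting Tregs at 18 h (circles) and 36 h (squares), with bars for the standard error, in panels for large subunit genes with and without a bacterial homologue and for the small subunit, where dotted lines separate genes with a homologue (top), genes without one and Mrps36 (bottom). Mrps22 lies highest, at 2.56 and 2.53, and Mrpl24 is the single gene below 0, at −0.17 and −0.40.

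Mrpl24, the homologue of a bacterial protein that starts large subunit assembly, had 96.3, 97.9 and 92.9 CPM in resting cells, 84.7, 82.2 and 88.3 CPM at 18 h and 74.3, 72.1 and 70.8 CPM at 36 h. Every stimulated library was below every resting one, with log2 fold changes of −0.17 ± 0.04 at 18 h (adjusted p = 3.0e-04) and −0.40 ± 0.04 at 36 h (adjusted p = 2.84e-12). The call at 18 h was lost without the libraries over 10000 CPM of the ribosomal locus transcript. Exons of Rrnad1, on the opposite strand, cover 26.3% of the exon bases of Mrpl24, and Rrnad1 had log2 fold changes of −0.67 and −1.08; strand is not marked by the library kit, so reads of the overlap cannot be told apart. Mrpl14, a protein at the interface of the subunits, had the smallest rise at 18 h, 0.22 ± 0.10 (adjusted p = 0.0464), and its call was lost in 7 of 9 alternative settings and whenever any 1 of the 6 libraries was left out, with adjusted p values of 0.0242 to 0.807 over these. Mrpl9 (0.32 ± 0.05), Mrpl10 (0.37 ± 0.05) and Mrps16 (0.40 ± 0.07) rose by less than 1.5-fold at 18 h. At 36 h the smallest rises after Mrpl52 were those of Mrpl23 (0.35 ± 0.09), Mrpl30 (0.44 ± 0.05) and Mrpl14 (0.47 ± 0.10), of which the Mrpl23 call was lost under upper-quartile scaling and a filter at 10 CPM. Mrpl52 itself stood at 0.18 ± 0.08 on the log2 scale at 36 h (adjusted p = 0.0324), and this call was lost in 4 of 9 alternative settings and without any 1 of 5 of the 6 libraries; of these settings, upper-quartile scaling and a filter at 10 CPM turned its direction. Of the 45 genes with no exon overlap with another gene, all 45 rose at both times.

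Between 18 h and 36 h of stimulation without agonist the list did not move as 1 group. Control cells at 36 h over those at 18 h had 24 genes higher and 13 lower, where 52.2% of all genes were called, 25.6% higher and 26.6% lower; the median was 0.05, and 0 genes reached 1.5-fold, against 15.7% of all genes. Mrpl18, the homologue of a bacterial protein that binds 5S ribosomal RNA, gained most, with 105, 102 and 103 CPM at 36 h against 70.2, 79.3 and 73.1 CPM at 18 h (log2 fold change 0.48 ± 0.05, adjusted p = 4.74e-12). Exons of Tcp1 on the opposite strand cover 10.1% of the exon bases of Mrpl18, and shared reads cannot be told apart. Tcp1 averaged 858 CPM in control cells at 36 h against 733 CPM at 18 h. Mrpl10, at the base of the stalk, was higher by 0.40 ± 0.05, Mrpl49 by 0.35 ± 0.06, Mrpl1 by 0.34 ± 0.07 and Mrpl53 by 0.33 ± 0.10. Reads of Mrpl53 are uncertain because Gm42688 covers 88.0% of its exon bases on the same strand. Counts of Mrpl53 were not whole numbers in 32 libraries. Gm42688 averaged 20.1 CPM in resting cells, 5.415 CPM in control cells at 18 h and 2.82 CPM at 36 h. Mrpl53 had 6.07, 8.70 and 6.96 CPM in resting cells, 16.4, 17.5 and 17.1 CPM at 18 h and 21.5, 21.4 and 21.2 CPM at 36 h. The part of shared reads in the Mrpl53 changes, also over resting cells, was not tested. In the other direction, Mrpl23, a protein at the exit of the peptide tunnel, had 15.7, 15.3 and 16.8 CPM at 36 h against 20.5, 20.7 and 23.6 CPM at 18 h (−0.44 ± 0.08, adjusted p = 5.61e-06). Mrpl19 was lower by −0.35 ± 0.04, Mrps28 by −0.33 ± 0.07, Mrpl24 by −0.23 ± 0.04 and Mrpl52 by −0.23 ± 0.07, and the libraries of the 2 times did not overlap in any of these genes; the Mrpl52 call was lost without control replicate 2 at 36 h, with the ribosomal locus transcript as a covariate, and without the libraries over 10000 CPM of it. For Mrpl19, exons of Gcfc2 on the opposite strand cover 36.0% of its exon bases, and Gcfc2 averaged 23.2 CPM at 36 h against 21.6 CPM at 18 h. The other 8 genes called lower, Mrpl2, Mrpl3, Mrpl15, Mrpl37, Mrps5, Mrps6, Mrps17 and Mrps35, had log2 fold changes of −0.11 to −0.15, and each of these 8 calls was lost in some other setting or with a library left out. Control replicate 2 at 18 h decided the calls of Mrpl2 and Mrpl15, and replicate 3 at 18 h those of Mrpl37, Mrps5, Mrps6, Mrps17 and Mrps35. At 36 h replicate 1 decided Mrpl15, replicate 2 Mrpl2, Mrpl37, Mrps5 and Mrps6, and replicate 3 Mrps5, Mrps17 and Mrps35, while Mrpl3 lost its call with the ribosomal locus covariate. Of the 76 genes higher at 18 h than in resting cells, 24 were thus higher again at 36 h and 12 lower than at 18 h. Both comparisons use the same control libraries at 18 h, and no such share was taken over all genes higher at 18 h. The libraries of both times did not overlap in 41 of the 77 genes, against 59.3% of all genes, so the share was below that of the whole table. Without the libraries over 10000 CPM of the ribosomal locus transcript, which leaves 1 control library at 18 h, 23 genes were called in place of 37, and Mrpl53 was among those lost (adjusted p = 0.0525).

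**Figure D3:**
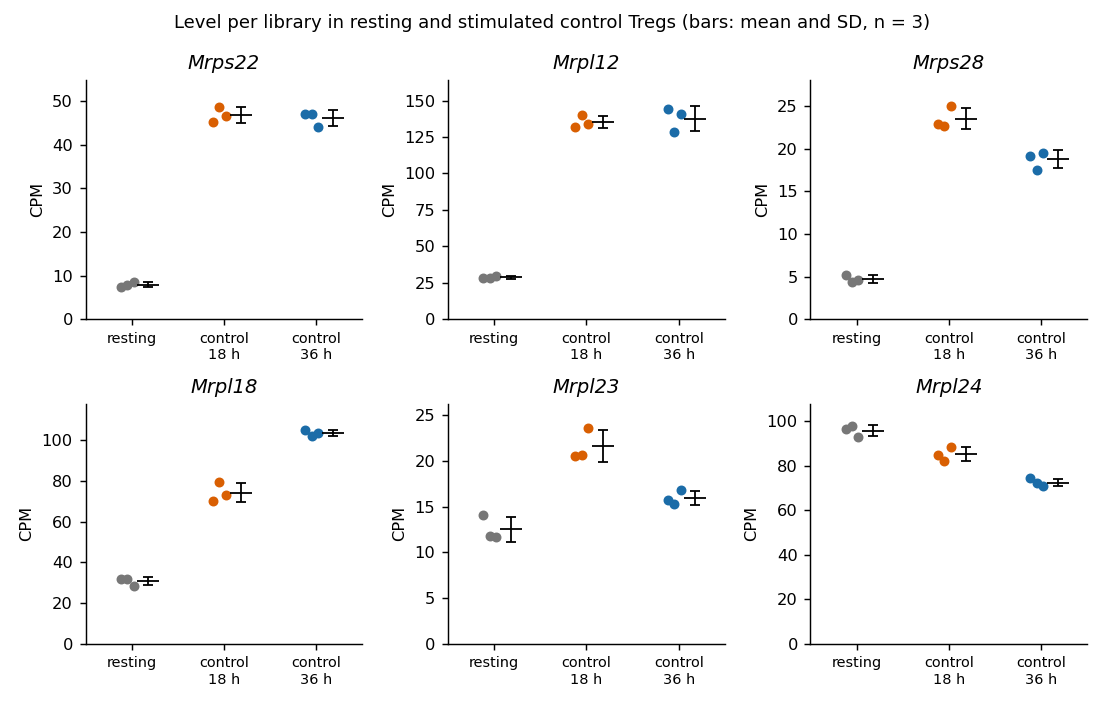
Level (CPM, vertical axes from 0) of 6 genes in each library of resting Tregs and of control Tregs at 18 h and 36 h, with the mean and SD beside the points. Mrps22, Mrpl12 and Mrps28 show the largest rises, Mrpl18 and Mrpl23 the largest rise and fall between 18 h and 36 h, and Mrpl24 lies lower in every stimulated library.

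Other genes of mitochondrial translation were counted from lists of known components. Of 6 mitoribosome proteins that carry other names, 5 rose in control cells at 18 h over resting cells: Chchd1 by 1.31 ± 0.08, Gadd45gip1 by 1.30 ± 0.07, Ptcd3 by 1.21 ± 0.04, Aurkaip1 by 0.66 ± 0.05 and Dap3 by 0.29 ± 0.04. The remaining one, Ict1, had a log2 fold change of 0.13 ± 0.07 and was not called. Of 24 genes of mitoribosome assembly and ribosomal RNA modification, 19 rose and 2 fell (median 0.53); Mrm3, which methylates the large ribosomal RNA, rose by 2.24 ± 0.12, Fastkd2 by 1.72 ± 0.07, Rcc1l by 1.61 ± 0.07 and Noa1 by 1.54 ± 0.06, while Mettl17, a small subunit assembly factor, fell by 0.59. Among 16 translation factors 9 rose and 4 fell (median 0.57), with C1qbp, a matrix chaperone needed for mitochondrial translation, at 322, 331 and 329 CPM at 18 h against 50.7, 53.3 and 52.8 CPM in resting cells (2.65 ± 0.04). Its stimulated libraries were about 6 times the resting ones. Lrpprc, which stabilises mitochondrial messenger RNAs, rose by 1.77 ± 0.05. The elongation factors Gfm1 (1.75 ± 0.05), Tsfm (2.01 ± 0.09) and Tufm (1.27 ± 0.04) rose too, and Mtrf1l, Mtif3, Mtfmt and Oxa1l fell.

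Transfer RNA charging was mixed, with 13 of 20 genes higher and 5 lower (median 0.68): Yars2 rose by 1.80 ± 0.08, Rars2 by 1.38 ± 0.06 and Iars2 by 0.67 ± 0.04, and Ears2 fell by 0.81. Of 18 genes of mitochondrial transcription and RNA processing 13 rose and 1 fell (median 0.74), Tbrg4 by 1.5 ± 0.05, Supv3l1 by 1.19 ± 0.05 and Elac2, which cleaves transfer RNA 3′ ends, by 1.36 ± 0.05. Genes of the mitochondrial genome itself did not follow: 1 of 13 was called higher, mt-Nd1 by 0.74 ± 0.16. Called lower were 6, among them mt-Co1 by 0.84, mt-Cytb by 0.59 and mt-Atp6. The fall of mt-Atp6, at no more than 1.1 CPM in any of these libraries, is not read as a level, and mt-Co2, mt-Co3 and mt-Atp8 were likewise listed at or under that level at 18 h and in resting cells. The large ribosomal RNA mt-Rnr2 fell by 0.39 ± 0.16, and the small ribosomal RNA mt-Rnr1 had 0.28 ± 0.14 and was not called (adjusted p = 0.0651). Cytosolic ribosomal proteins had 32 of 76 higher and 23 lower, with a median of 0.05.

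**Figure D4:**
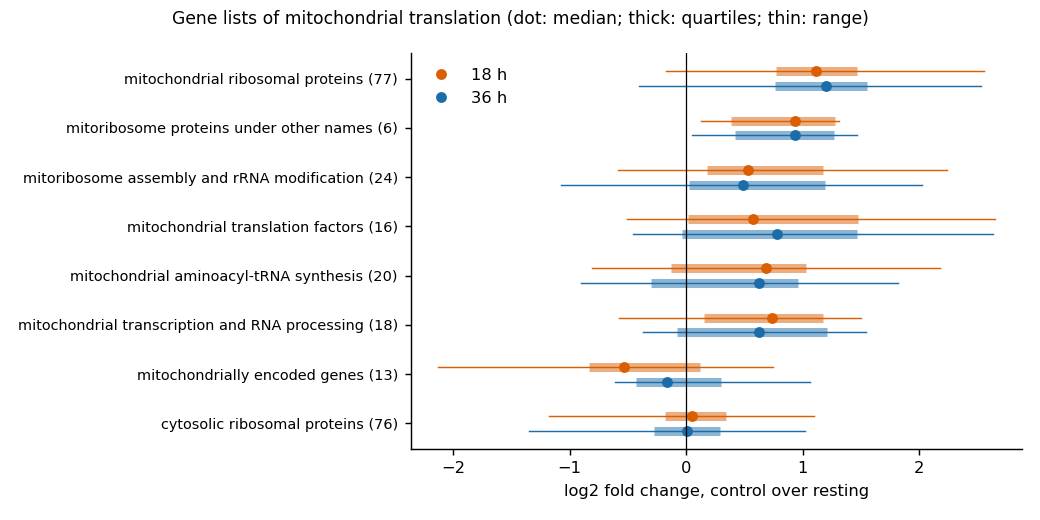
Log2 fold change in control over resting Tregs (horizontal axis) at 18 h and 36 h for the mitochondrial ribosomal proteins and 7 other lists, with the number of genes tested in parentheses; dots are medians, thick bars quartiles and thin bars ranges. Medians at 18 h are 1.11 for the mitochondrial ribosomal proteins, 0.05 for the cytosolic ones and −0.54 for the mitochondrially encoded genes. Some mitochondrially encoded genes, mt-Atp6 among them, were too low to be read as levels.

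Transcripts of factors known to act on nuclear genes for mitochondria moved unequally. Myc had 739, 741 and 747 CPM in control cells at 18 h against 142, 140 and 145 CPM in resting cells (log2 fold change 2.38 ± 0.04, adjusted p = 7.63e-45), and the groups did not overlap. Pprc1, a coactivator related to PGC-1, rose by 1.89 ± 0.04, Gabpb1 by 0.53 ± 0.04, Max by 0.52 ± 0.04 and Gabpa, the DNA-binding subunit of GABP, by 0.37 ± 0.05. Esrra fell by 0.46, Yy1 by 0.16 and Gabpb2 by 0.15. Nrf1, which encodes NRF-1, had a log2 fold change of −0.09 ± 0.05 at 18 h and Ppargc1b −0.11 ± 0.08, and neither was called. At 36 h over resting cells Myc was at 1.78, Pprc1 at 1.37, Gabpa at 0.61, Max at 0.57 and Gabpb1 at 0.42. Nrf1 was called higher at 36 h, with 85.8, 81.2 and 90.9 CPM against 67.3, 58.2 and 60.9 CPM in resting cells (log2 fold change 0.47 ± 0.05). Ppargc1b was called lower, with 8.905, 9.10 and 8.67 CPM against 13.1, 14.5 and 14.5 CPM (−0.66 ± 0.08), as was Esrra (−0.49 ± 0.07), and Gabpb2 and Yy1 were not called.

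Agonists added to stimulation moved few of the 77 genes and by small amounts. At 18 h, over control cells of the same time, the TNFR2 agonist had 16 genes higher and 2 lower, where 31.1% of all genes were called, 15.8% higher and 15.3% lower. The 4-1BB agonist had 9 higher and 1 lower (25.8% of all genes called, 12.7% higher and 13.1% lower). With the DR3 agonist 9 were higher and 0 lower (19.6%, 9.66% higher and 9.94% lower), and with the OX40 agonist 1 was higher and 2 lower (19%, 9.32% higher and 9.71% lower). At 36 h the counts were 10 higher and 1 lower for TNFR2 (24.8%, 13% higher and 11.9% lower) and 5 and 3 for 4-1BB (22.5%, 10.9% higher and 11.5% lower). They were 2 and 1 for DR3 (13.4%, 6.97% higher and 6.39% lower) and 1 and 1 for OX40 (13.3%, 7.12% higher and 6.21% lower). In all 8 comparisons the share of the 77 genes called, counting both directions, was below that of all genes. The share called higher was above that of all genes with the TNFR2 agonist at 18 h. It was near that of all genes with DR3 at 18 h and with TNFR2 at 36 h. With 1 library left out, calls in both directions numbered 12 to 24 for TNFR2 and 5 to 9 for DR3 at 18 h. Medians of the list lay between −0.01 and 0.07 on the log2 scale in these 8 comparisons. In none of them were 51 genes called, a count for which no share over all genes was taken. With the TNFR2 agonist at 18 h 1 gene, Mrpl14, passed 1.5-fold, against 6.8% of all genes; with the 4-1BB, DR3 and OX40 agonists 0 did, against 6.74%, 3.56% and 3.88%, and at 36 h 0 did with any agonist, against 4.21%, 5.32%, 2.12% and 2.52% for TNFR2, 4-1BB, DR3 and OX40. The comparisons at a time share their control libraries, so their values stand side by side and were not correlated. Cytosolic ribosomal proteins, at 18 h, had 32, 26, 27 and 6 of 76 higher with the TNFR2, 4-1BB, DR3 and OX40 agonists and none lower.

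These counts depended on single libraries. Of the 10 genes called with the 4-1BB agonist at 18 h, 4 to 6 were called without any 1 of its 6 libraries. For the DR3 agonist at 18 h 5 were called without its replicate 3, and for OX40 1 without control replicate 2 and 6 without OX40 replicate 1. With the TNFR2 agonist at 36 h 5 were called without control replicate 2 or without TNFR2 replicate 2. For 4-1BB at 36 h the count was 3 without control replicate 2 or 3 or 4-1BB replicate 1 or 3, and 2 without 4-1BB replicate 2. DR3 at 36 h kept 1 call without control replicate 2, and OX40 at 36 h had 1 without control replicate 1 or any OX40 replicate and 4 without control replicate 3. Without the libraries over 10000 CPM of the ribosomal locus transcript, which removes control replicates 1 and 2 at 18 h, 4, 1, 3 and 1 genes were called with the TNFR2, 4-1BB, DR3 and OX40 agonists at 18 h; the lone control library is then assumed to vary like the other groups.

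The largest agonist effect was that on Mrpl14, which at 18 h had 18.7, 20.2 and 16.8 CPM with the TNFR2 agonist, 17.1, 16.0 and 16.0 CPM with 4-1BB, 15.95, 16.1 and 17.5 CPM with DR3 and 16.3 and 12.7 CPM with OX40, against 11.9, 11.6 and 12.0 CPM in control cells. All agonist libraries were above all control libraries. Log2 fold changes were 0.65 ± 0.09 with TNFR2 (adjusted p = 5.4e-08), 0.47 ± 0.09 with 4-1BB (adjusted p = 3.87e-05), 0.48 ± 0.09 with DR3 (adjusted p = 7.76e-05) and 0.30 ± 0.10 with OX40 (adjusted p = 0.0273), and the OX40 call was lost without control replicate 1 or 2 or OX40 replicate 1 and in 3 of 9 alternative settings, with log2 fold changes of 0.10 to 0.46 over these. At 36 h Mrpl14 was called with the TNFR2 agonist only (0.38 ± 0.08), and its change between times passed the test with none of the 4. Exons of Tmem63b on the opposite strand cover 11.2% of the exon bases of Mrpl14, and Tmem63b itself averaged 29.0 ± 1.49, 32.03 ± 1.83, 26.3 ± 2.52 and 25.4 ± 3.88 CPM with these agonists at 18 h against 18.6 ± 1.52 CPM in control cells. Shared reads cannot be told apart here; in control over resting cells at 18 h, Tmem63b was lower (−0.57) where Mrpl14 had 0.22.

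Mrpl38, a protein of the central protuberance of the large subunit whose exons overlap no other gene, was called higher in 7 of the 8 comparisons, the most of any gene in the list. It had 65.4, 69.7 and 66.05 CPM with the TNFR2 agonist at 18 h against 55.2, 54.4 and 55.2 CPM in control cells, higher by 0.29 ± 0.05 on the log2 scale (adjusted p = 1.98e-06). Every TNFR2 library was above every control library, and the call held in each alternative and with each library left out. The other called values of Mrpl38 ranged from 0.12 to 0.19, and OX40 at 18 h gave 0.07 (adjusted p = 0.404). For these smaller changes, leaving out 1 library ended the call of 4-1BB in 5 of 6 cases at 18 h (all but 4-1BB replicate 2) and in 4 of 6 at 36 h (all but replicate 1 of either group). At 36 h the Mrpl38 call with DR3 was also lost without control replicate 2, and that with OX40 without OX40 replicate 3; without the libraries over 10000 CPM of the ribosomal locus transcript it was lost with 4-1BB and DR3 at both times. Mrps28 and Mrps7, a protein of the small subunit head, were called higher in 5 comparisons each, with values of 0.19 to 0.24 and 0.11 to 0.22. Exons of Mif4gd and Gga3 on the opposite strand cover 5.7% and 6.1% of the exon bases of Mrps7, and shared reads cannot be told apart. Mif4gd averaged 107.5, 100.9, 102.9 and 93.8 CPM with TNFR2, 4-1BB, DR3 and OX40 at 18 h against 84.7 CPM in control cells. Gga3 averaged 72.3, 74.2, 75.5 and 70.6 CPM against 75.5 CPM. At 36 h the Mrps28 call was lost with 4-1BB without control replicate 2 or 4-1BB replicate 1, and with DR3 without control replicate 2 or DR3 replicate 1 or 2; the Mrps7 call with 4-1BB was lost without any 1 library but control replicate 1. Mrps12, of the decoding centre, and Mrps24 were called in 3 comparisons each, not all of which are described. At 18 h Mrps12 was called higher with TNFR2 (0.33 ± 0.07) and DR3 (0.30 ± 0.08), and Mrps24 (0.31 ± 0.07) with TNFR2. Without the libraries over 10000 CPM these 3 calls were lost, with values of 0.22 and 0.24 for Mrps12 (adjusted p = 0.181 and 0.159) and 0.33 for Mrps24 (adjusted p = 0.0816), as was that of Mrps7 with TNFR2 at 18 h (0.20, adjusted p = 0.0777).

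Further calls were smaller, and not every call is described. Mrps34 was called in 3 comparisons. Among these it was higher with DR3 at 18 h (0.21), not without control replicate 3. It was also higher with TNFR2 at 36 h (0.20), not without TNFR2 replicate 2. Its reads are uncertain, because exons of Mapk8ip3 on the opposite strand cover 63.4% of its exon bases. Those of Nme3 on the same strand cover 37.0%, and counts of Mrps34 were not whole numbers in 31 libraries. With 4-1BB at 18 h Mrps15 (0.18) and Mrpl46 (0.18) were called, and each had 2 calls over the agonist comparisons. Mrps15 lost this 4-1BB call without control replicate 2 or 4-1BB replicate 1 or 2. Mrpl46 lost its own without control replicate 1 or 3 or 4-1BB replicate 2 or 3, and in 4 of 9 alternative settings. Mrps30 was called in 4 comparisons, among them TNFR2 at 36 h, with values of 0.11 to 0.16 over the alternatives. That call was lost in 2 of 9 alternative settings and without control replicate 2 or 3 or TNFR2 replicate 3. Mrpl37 (0.15) was called with 4-1BB and Mrpl54 (0.25) with TNFR2 at 36 h, and these calls held in every setting run. Mrpl45, which anchors the ribosome to the inner membrane at the tunnel exit, was called with TNFR2 and 4-1BB at both times, at 0.12 to 0.17. With 4-1BB 5 of 6 libraries ended its call at each time (all but 4-1BB replicate 1 at 18 h and control replicate 1 at 36 h), and with TNFR2 at 36 h control replicate 2 or TNFR2 replicate 1 did.

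Fewer genes were lower with an agonist. Mrpl4, whose bacterial homologue lines the peptide tunnel, had 43.3, 43.7 and 40.7 CPM under 4-1BB stimulation at 18 h, 42.6 and 44.2 CPM with OX40 and 43.0, 47.3 and 44.4 CPM with TNFR2, against 53.8, 49.8 and 49.4 CPM in control cells. No library with these agonists reached the control range. Log2 fold changes were −0.26 ± 0.06, −0.23 ± 0.06 and −0.19 ± 0.06 in that order, and DR3 had −0.11 ± 0.06 without a call. Without the libraries over 10000 CPM of the ribosomal locus transcript all 3 calls were lost, at −0.21 for 4-1BB (adjusted p = 0.076), −0.19 for OX40 (adjusted p = 0.202) and −0.11 for TNFR2 (adjusted p = 0.467). The TNFR2 call was also lost without replicate 1 of either group, and the OX40 call without OX40 replicate 1. At 36 h Mrpl4 was again called lower with 4-1BB (−0.16 ± 0.05), a call lost without control replicate 1 or 3 or 4-1BB replicate 1 or 2. At 36 h Mrps2 fell by 0.19 with DR3 and by 0.16 with TNFR2, calls that held in every setting run. Other lower calls rested on single libraries. Mrps14 with OX40 at 36 h (−0.16) lost its call without any 1 library but OX40 replicate 3, and in 2 of 9 alternative settings. Mrpl41 with OX40 at 18 h (−0.20), where libraries overlapped, lost it in 5 of 9 settings and without control replicate 2 or 3 or OX40 replicate 2, with values of −0.41 to −0.04. For 4-1BB at 36 h the Mrpl30 call (−0.12) was lost without control replicate 1 or any 4-1BB replicate, and the Mrps5 call (−0.10) in 5 of 9 settings and without any 1 of the 6 libraries.

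**Figure D5:**
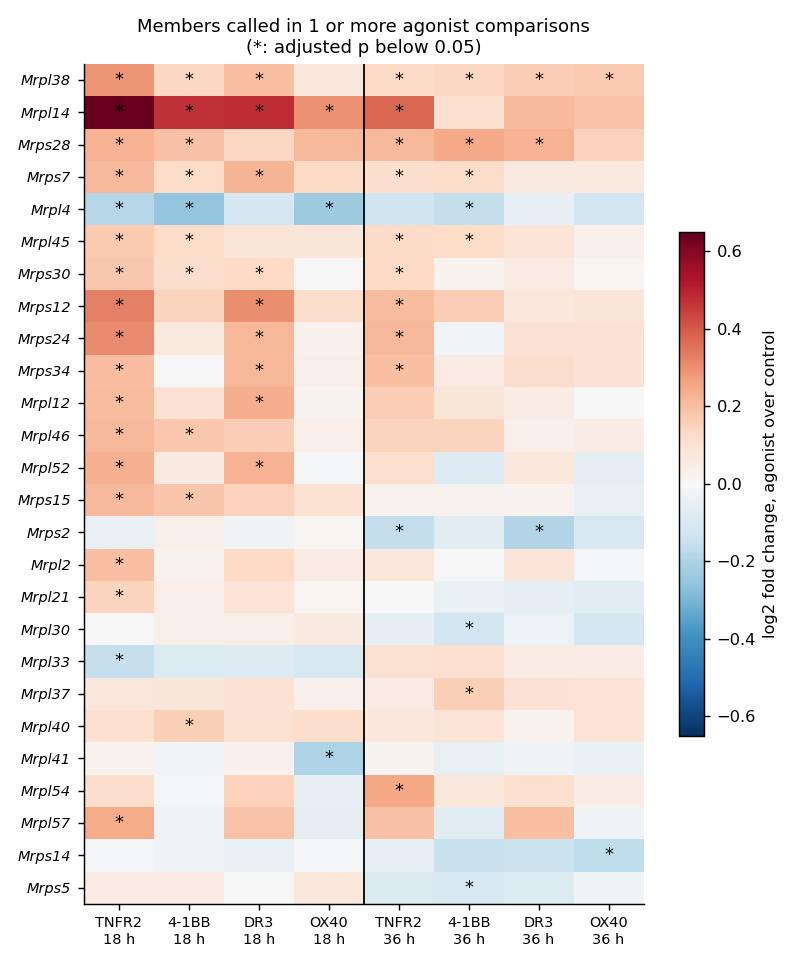
Log2 fold change with each agonist over control cells of the same time for the 26 genes called in at least 1 of the 8 comparisons, ordered by the number of calls; red is higher, blue lower, and a star marks an adjusted p below 0.05. Mrpl14 at 18 h has the strongest colour, at 0.65 with the TNFR2 agonist, and Mrpl38 the most stars, 7.

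Whether the 4 agonists differed among themselves was tested jointly, at doses that were not matched. At 18 h 8 of the 77 genes were called (14.3% of all genes): Mrpl38, Mrps34, Mrps24, Mrpl57, Mrpl2, Mrpl52, Mrpl14 and Mrps30. Mrpl57 had 27.4, 27.6 and 25.9 CPM with TNFR2 and 24.3, 24.3 and 29.8 CPM with DR3, against 20.7, 22.7 and 23.8 CPM with 4-1BB and 23.6 and 20.2 CPM with OX40 (adjusted p = 0.0195), so the first pair of agonists lay above the second. The count at 18 h was 2 without TNFR2 replicate 1 or 2 or OX40 replicate 2, 3 without 4-1BB replicate 1, 5 without 4-1BB replicate 2 and 14 without TNFR2 replicate 3 or OX40 replicate 1. At 36 h Mrpl57 was the 1 gene called (adjusted p = 0.0241; 9.06% of all genes); 0 were called without TNFR2 or 4-1BB replicate 2 or DR3 or OX40 replicate 1, 2 without OX40 replicate 3 and 3 without TNFR2 replicate 1. The replicate block left 5 calls at 18 h.

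The effect of an agonist differed between 36 h and 18 h in 1 gene, Mrpl33, a small protein of the large subunit, with TNFR2 (6.69% of all genes called, 3.68% higher and 3.01% lower). Mrpl33 had 49.4, 53.9 and 48.5 CPM with the TNFR2 agonist at 36 h against 45.4, 46.4 and 49.8 CPM in control cells, and 47.4, 39.5 and 46.4 CPM with the agonist at 18 h against 49.0, 50.6 and 48.9 CPM in control cells. Libraries overlapped at 36 h and not at 18 h. The count for TNFR2 was 0 without TNFR2 replicate 2 at 18 h or 36 h or control replicate 1 or 2 at 36 h, and 3 without TNFR2 replicate 3 at 18 h. For 4-1BB, DR3 and OX40 0 genes were called by edgeR and 0 by DESeq2, and 7, 11 and 4 genes had an unadjusted p below 0.05. The background by edgeR was 4.37% for 4-1BB (2.34% higher and 2.03% lower), 2.31% for DR3 (1.22% and 1.1%) and 3.48% for OX40 (2.1% and 1.38%). Leaving out control replicate 2 at 36 h gave 1 call for 4-1BB, and leaving out OX40 replicate 1 at 18 h gave 3 for OX40.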

How the data were processed

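RNA of sorted Tregs was sequenced after SMART-Seq v4 amplification, which does not mark strand, per the labels' protocols. Tools listed, without roles, in the submitters' processing notes are RSEM 1.2.28, STAR 2.5.3a, Trimmomatic and FastQC, with build mm10. The deposited tables give expected counts (estimated reads per gene, not scaled) and TPM (scaled by the authors for depth and transcript length) for each of 32 libraries.

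Expected counts were rounded and fitted in 1 model with 11 groups using edgeR 4.0.16 (R 4.3.3; TMM scaling, filterByExpr, robust quasi-likelihood tests), with Benjamini-Hochberg adjustment over all 14313 genes tested and calls at an adjusted p below 0.05. This gave 17 tests: 11 contrasts of 2 groups, 4 of agonist effects between times and 2 joint tests. Standard errors are of the log2 fold change. The procedure was tested on simulated data. Alternatives were other scalings and filters, DESeq2 1.42.0, subsets of groups, a replicate block, the ribosomal locus transcript as a covariate, libraries left out, and TPM on the log2 scale with a pseudocount of 1. Exon overlaps came from GENCODE annotation of mm10, and promoters from RefSeq (GRCm38.p6).

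The members and lists were chosen with earlier results of these data known. Genes named are the 5 largest and 5 smallest changes among control and resting groups, genes called in the less frequent direction, up to 5 called genes by p for each agonist test and direction, the 5 highest and lowest by TPM, the S18 paralogs, 3 genes by p for each list and all regulators. Other genes named were chosen after their values were seen. The lowest count total of a library was 11880270, so a level of 1 CPM rests on few reads. Standard errors, SDs and p-values measure the spread between these libraries.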

Additional observations from a re-analysis of the deposited data

Results flagged for a closer look

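The effect of the TNFR2 agonist on Mrpl33 differed between the times: the log2 fold change over control cells was 0.10 ± 0.05 at 36 h (adjusted p = 0.157) and −0.15 ± 0.05 at 18 h (adjusted p = 0.0272), a difference of 0.25 ± 0.07 (edgeR interaction, adjusted p = 0.029). The call was lost in 3 of 9 alternative settings and without any 1 of 5 of the 12 libraries, with adjusted p values of 0.011 to 0.169 over these. The counts of Mrpl33 were not whole numbers in 16 libraries, which marks reads shared with another gene. The part of this in the difference was not tested.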

How the results depend on the processing

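Calls with stimulation were the stable part of the results. With 1 library left out, 76 to 76 genes were called at 18 h over resting cells, 76 to 77 at 36 h, and 32 to 35 between 36 h and 18 h. With agonists the ranges were wider: 12 to 24 (TNFR2), 4 to 6 (4-1BB), 5 to 9 (DR3) and 1 to 6 (OX40) at 18 h, and 5 to 15, 2 to 6, 1 to 4 and 1 to 4 at 36 h. They were 0 to 3 (TNFR2), 0 to 1 (4-1BB), 0 to 0 (DR3) and 0 to 3 (OX40) for the difference between times, and 2 to 14 and 0 to 3 for the joint tests at 18 h and 36 h.

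DESeq2 size factors within edgeR gave 5 calls for OX40 at 18 h and 2 for the TNFR2 difference between times. Upper-quartile scaling gave 4 for 4-1BB at 18 h and 4 for OX40 at 36 h. Without the low count filter there were 4 for 4-1BB at 18 h, 3 for 4-1BB at 36 h and 5 in the joint test at 36 h. A filter at 10 CPM gave 6 for 4-1BB at 18 h, 5 for OX40 at 36 h and 2 for the TNFR2 difference. Fits on the compared groups alone gave 1 for OX40 at 18 h, 5 for DR3 at 36 h, 0 and 1 for the TNFR2 and 4-1BB differences, and 2 and 4 in the joint tests at 18 h and 36 h. With the ribosomal locus transcript as a covariate there were 5 for 4-1BB and 1 for OX40 at 18 h, 3 for TNFR2 at 36 h and 0 for the TNFR2 difference. Without the libraries over 10000 CPM of it there were 23 between 36 h and 18 h; 4, 1, 3 and 1 for TNFR2, 4-1BB, DR3 and OX40 at 18 h; 6, 4 and 1 for TNFR2, 4-1BB and OX40 at 36 h; 0 for the TNFR2 difference; and 2 and 0 in the joint tests. DESeq2 gave 5 for 4-1BB at 18 h, 1 for OX40 at 36 h and 2 for the TNFR2 difference. For these shifts the cause was not tested.

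Counts that fell by construction were those of the 45 genes with no exon overlap, a restriction chosen after seeing the data: 45 and 45 with stimulation, 23 between times, 9, 6 and 3 for TNFR2, 4-1BB and DR3 at 18 h, 6 for TNFR2 at 36 h, 0 for the TNFR2 difference and 4 in the joint test at 18 h. Requiring 1.5-fold left 1 call for TNFR2 at 18 h and 0 between times, for every other agonist comparison and for the TNFR2 difference.

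Replicate numbers did not pair the libraries: 1 of 32 pairs correlated above 0.1, and 6 of 32 libraries correlated best with their own number. The replicate block gave 5 calls in the joint test at 18 h and kept every other count within 1.5-fold.

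On the log2(TPM + 1) scale the median of the 77 genes was 0.99 at 18 h and 1.06 at 36 h over resting cells; at 36 h it turned to −0.0283 for TNFR2 and −0.0120 for 4-1BB, and was −0.0369 for OX40. Without genes that have paralogs or pseudogenes the summed TPM was 1.90 times that of resting cells at 18 h and 1.96 times at 36 h. The Mrpl52 change at 36 h over resting cells turned to −0.0216 with upper-quartile scaling and −0.0167 with the 10 CPM filter.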
